A study of Mus musculus with 2 samples.

Results

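Nqo1, Gclm, Gclc, Txnrd1, Srxn1, Slc7a11, Prdx1 and Gsr are 8 genes known as targets of the transcription factor Nrf2, and they were taken by symbol from the 31053 genes listed for 2 single-cell RNA libraries. All 8 were found in both libraries, and each symbol matched 1 row. The cells were bone marrow cells of wild-type 129Sv mice, cultured in serum (10% FBS) with M-CSF at 50 ng/ml, the growth factor under which marrow cells become macrophages. On day 7 of culture 1 group received 1 µg/ml of truncated Tamm-Horsfall protein, described in the series as non-polymerizing (the THP library), and the other received the vehicle, 5% dextrose (the vehicle library), each for 18 h. Tamm-Horsfall protein, also called uromodulin, is made in the kidney and is the most abundant protein of normal urine. There was 1 library per group, so no difference between the groups has a replicate check, no p-value is given, and treatment, culture dish and library preparation cannot be told apart.

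Nrf2, encoded by Nfe2l2, is held in the cytoplasm and degraded through Keap1 and Cul3 until oxidants or electrophiles modify Keap1. Nrf2 then enters the nucleus, pairs with small Maf proteins and binds antioxidant response elements, sites at which Bach1 acts as a repressor. Its targets fall into 3 arms here. Slc7a11, Gclc, Gclm and Gsr supply, make and regenerate glutathione, Txnrd1, Prdx1 and Srxn1 belong to the thioredoxin and peroxiredoxin arm, and Nqo1 reduces quinones. In macrophages these enzymes are known to buffer the oxidants that the cells themselves produce. The files measure transcript counts and hold no measurement of Nrf2 protein, of its binding or of oxidants.

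RefSeq promoter sequence (GRCm38.p6) was at hand for 6 of the 8 genes, and the 250 bases before each start were searched on both strands for 3 motifs, to show which regulatory letters the genes share and which they do not. The core of the antioxidant response element was spelled TGACNNNGC, the AP-1 site TGANTCA and the amino acid response element, a site of Atf4, TGATGCAA. An AP-1 site can lie within an antioxidant response element, and the 2 motifs overlapped in Prdx1. The antioxidant response core was found in windows of Gclm, Txnrd1 and Prdx1, and 10.2% of the 32851 promoter windows of the same length hold it. The stretches below, 5′ to 3′ on the gene's own strand, show those matches in capitals (written on the reverse strand) with their flanks.
Gclm, chr3:122245411-122245443, plus strand: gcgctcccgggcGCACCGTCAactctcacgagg
Txnrd1, chr10:82859102-82859134, plus strand: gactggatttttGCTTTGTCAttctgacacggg
Prdx1, chr4:116685350-116685486, plus strand: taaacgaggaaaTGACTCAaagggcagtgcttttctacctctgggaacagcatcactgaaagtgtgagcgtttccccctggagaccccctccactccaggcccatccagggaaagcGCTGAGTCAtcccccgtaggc
The Gclm match lay 134 to 126 bases before the start, the Txnrd1 match 92 to 84 bases, and the Prdx1 match 133 to 125 bases. RefSeq lists 3 starts for Txnrd1, and only the window of the start used here held the match. The first capitals of the Prdx1 stretch are an AP-1 match 237 to 231 bases before the start.

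Srxn1 and Slc7a11 held no match to the core as spelled here. Their matches to the other motifs are shown because Slc7a11 was the member whose level differed most between the libraries. Capitals again mark the matches. Srxn1 held 2 AP-1 matches (102 to 96 and 45 to 39 bases before the start), a motif found in 6.75% of the windows. With the 2 bases after it, the match nearer the start reads TGAGTCAgc, which differs from the searched core only by G in place of C. That spelling was not searched, so the search does not show that Srxn1 lacks an antioxidant response element. Slc7a11 held 2 matches to the amino acid response element, 66 to 59 bases before the start and, on the reverse strand, 47 to 40 bases before it. That motif was found in 0.792% of the windows.
Srxn1, chr2:152105410-152105497, plus strand: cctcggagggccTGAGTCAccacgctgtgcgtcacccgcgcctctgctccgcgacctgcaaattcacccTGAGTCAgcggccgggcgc
Slc7a11, chr3:50443641-50443691, minus strand: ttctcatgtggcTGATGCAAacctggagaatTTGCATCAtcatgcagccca
The Nqo1 window held none of the 3 motifs. A match is a run of letters and does not show that a factor binds there.

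The THP library held 12123 kept cells with 224825484 UMIs (unique molecular identifiers, each marking 1 captured RNA molecule), and the vehicle library held 10978 kept cells with 207662132. Median depth per cell was 16113 and 17223 UMIs, median mitochondrial share 2.92% and 3.22%, and median ribosomal-protein share 18.9% and 16.8%, THP first. The libraries shared 38 kept barcodes (0.313% and 0.346% of their cells). Levels are CPM, the UMIs of a gene per 1000000 UMIs summed over the named cells, with exact 95% Poisson intervals that cover counting error only. Ratios are log2 of CPM + 1, THP over vehicle, and below "with THP" and "with vehicle" mean the THP library and the vehicle library. Since UMI counts are not scaled to transcript length, levels are compared between cells and libraries and not between genes. A gene was counted as past the size rule when it differed at least 2-fold and had at least 10 CPM in at least 1 library.

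None of the 8 genes passed the 2-fold rule over all kept cells, where 0.911% of the 8012 genes with at least 10 CPM were past it and higher with THP and 2.97% past it and lower. None reached 1.5-fold either, a size that 2.33% of all genes passed upward and 17.3% downward. Of the 8012 genes, 2596 were higher with THP and 5416 lower. Of the 7 members with at least 10 CPM, 3 were higher with THP (Slc7a11, Prdx1 and Srxn1) and 4 lower (Gclm, Txnrd1, Gsr and Gclc). Their median log2 ratio was -0.06, and that of all 8 members, Nqo1 included, was -0.13, beside -0.18 for all genes with at least 10 CPM. TMM scaling moves the scaling by 0.29 on the log2 scale before the 1 CPM is added, so low genes shift by less. It turned Gclm and Txnrd1 to higher with THP, and it also turned the all-gene median positive. A gene that TMM scaling turned to higher, here and below, need not lie above that median. Txnrd1, at most 0.08 over the settings tried, stayed below it with TMM scaling. Read against the all-gene median without TMM scaling (-0.18), Slc7a11, Prdx1, Srxn1 and Gclm lay above it, and Txnrd1, Gsr, Nqo1 and Gclc below.

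Glutathione is built from cysteine, glutamate and glycine, and Slc7a11 encodes the transporter subunit (xCT) that imports cystine, the source of the cysteine. Slc7a11 (ENSMUSG00000027737, chromosome 3, 49892526 to 50443614, minus strand, GRCm38) had 12.6 CPM (12.1 to 13.1) with THP and 8.62 CPM (8.23 to 9.03) with vehicle. The counting intervals did not overlap, and the log2 ratio was 0.50, with 2834 and 1790 UMIs. Its heavy-chain partner Slc3a2 had a log2 ratio of 0.17.

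Glutamate-cysteine ligase performs the first and rate-limiting step of glutathione synthesis, with Gclc as its catalytic and Gclm as its modifier subunit. Gclc (ENSMUSG00000032350, chromosome 9, 77754535 to 77794485, plus strand) had 22.7 CPM (22.1 to 23.4) with THP and 30.9 CPM (30.1 to 31.7) with vehicle, a log2 ratio of -0.43. Gclm (ENSMUSG00000028124, chromosome 3, 122245557 to 122270732, plus strand) had 92.8 CPM (91.6 to 94.1) and 96.6 CPM (95.2 to 97.9), a log2 ratio of -0.06. The catalytic subunit was thus lower with THP than with vehicle while the modifier subunit was close to level, and with TMM scaling Gclm was higher with THP and Gclc stayed lower. Gsr (ENSMUSG00000031584, chromosome 8, 33652523 to 33698163, plus strand), the reductase that returns oxidised glutathione to its reduced form, had 159 CPM (157 to 161) and 196 CPM (194 to 198). Its log2 ratio was -0.30, and over all kept cells it stayed between -0.32 and -0.02 in the 10 alternative settings tried.

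Txnrd1 encodes the cytosolic thioredoxin reductase, which uses NADPH to keep thioredoxin reduced. Txnrd1 (ENSMUSG00000020250, chromosome 10, 82833951 to 82897712, plus strand) had 159 CPM (157 to 161) with THP and 183 CPM (181 to 185) with vehicle, a log2 ratio of -0.20 that was above 0 with TMM scaling. Prdx1 encodes a peroxiredoxin, which removes peroxides and is itself reduced by thioredoxin. Prdx1 (ENSMUSG00000028691, chromosome 4, 116685544 to 116700822, plus strand) had 2447 CPM (2440 to 2453) and 2171 CPM (2165 to 2178), a log2 ratio of 0.17. Srxn1 encodes sulfiredoxin, which repairs peroxiredoxins that have been over-oxidised. Srxn1 (ENSMUSG00000032802, chromosome 2, 152105516 to 152111376, plus strand) had 41.0 CPM (40.1 to 41.8) and 36.7 CPM (35.9 to 37.5), a log2 ratio of 0.16. Peroxiredoxin and its repair enzyme were therefore both higher with THP, with intervals apart, while the reductase was lower. When the libraries were given the same mix of cell populations, the Srxn1 ratio was -0.003, on the other side of level, and the Prdx1 ratio was 0.03.

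Nqo1, the quinone reductase whose induction is a common readout of Nrf2 activity, was the only member under 10 CPM in both libraries. Nqo1 (ENSMUSG00000003849, chromosome 8, 107388225 to 107403206, minus strand) had 3.80 CPM (3.55 to 4.06) with THP and 5.10 CPM (4.80 to 5.42) with vehicle. It was lower with THP, with a log2 ratio of -0.35 from 854 and 1059 UMIs, and at least 1 UMI was seen in 6.13% and 7.62% of cells.

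**Figure D1:**
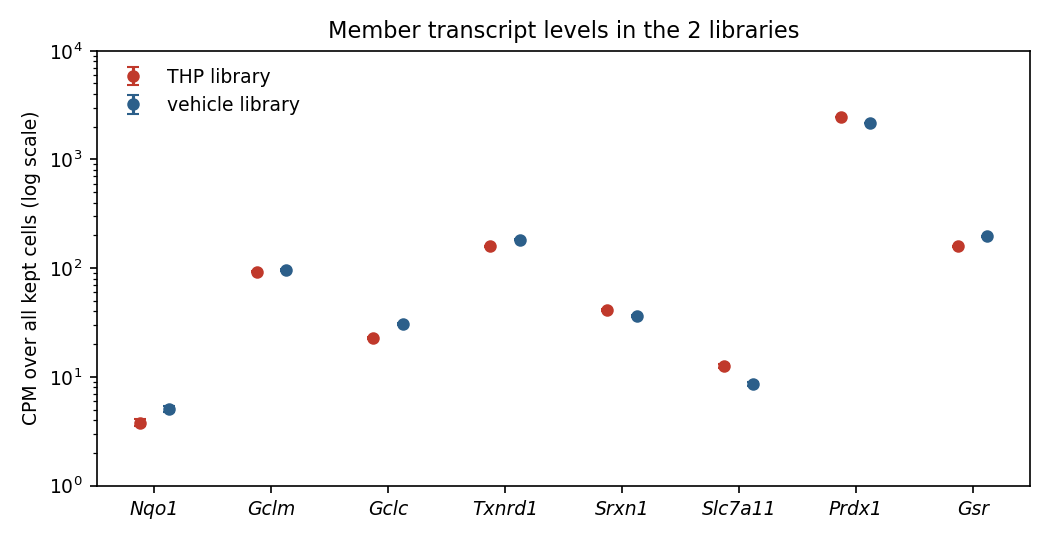
Levels of the 8 genes over all kept cells in CPM (log axis, y) by gene (x), with 1 point per library and bars for the exact 95% Poisson interval, which is often smaller than the point. Slc7a11, Prdx1 and Srxn1 sat higher with THP and the other 5 lower, with no pair 2-fold apart.

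The libraries differed by transcript length, and the members span a wide range of it. Across 5 groups of genes ordered by their longest annotated transcript, the median log2 ratio went from 0.10 in the shortest to -0.51 in the longest. Slc7a11 and Gclm, with longest transcripts of 9223 and 5589 bases, belong to the longest group and lay 1.01 and 0.46 above its median. Nqo1, at 1553 bases in the shortest group, lay 0.45 below (a difference of -0.45). The part of length in the members' ratios was not tested further than by the length-corrected values given with the other settings.

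Cells were assigned to populations by 8 fixed markers for each of 13 cell types: a cell joined a gate when at least 4 of that type's markers had at least 2 UMIs and no other type had as many. A gate is therefore a range of marker counts and not a proven cell type. At least 200 cells in each library were found in 6 gates. The macrophage gate (markers such as Adgre1, Fcgr1, Mertk and Csf1r) held 4115 cells with THP (33.9%) and 2888 with vehicle (26.3%). The monocyte gate held 830 and 1047 cells, the antigen-presenting gate (genes of MHC class II) 726 and 783, the myeloid progenitor gate 1050 and 1440, the immature neutrophil gate 1339 and 1635 and the mature neutrophil gate 713 and 944. No gate took 3139 cells (25.9%) with THP and 2088 (19.0%) with vehicle. Cells exactly at 4 markers made up 24.3% and 19.1% of the macrophage gate, 36.3% and 26.5% of the mature neutrophil gate and 59.4% and 40.2% of the antigen-presenting gate. The culture was labelled as macrophages, and over all kept cells the macrophage markers summed to 1462 CPM with THP and 1230 CPM with vehicle. All 8 of them were detected in every gate, and whether their RNA there was free in the droplets, from a second cell or the cell's own was not tested.

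Among these 6 gates, the members divided into genes with their highest level in macrophage-gated cells and genes that peaked elsewhere. Gclm and Srxn1 were highest in the macrophage gate in both libraries, Prdx1 with THP and Txnrd1 with vehicle. Gsr and Gclc were highest in progenitors, Nqo1 in antigen-presenting cells and Slc7a11 in mature neutrophils, each in both libraries. The order covers only the 6 gates. Cells in no gate held 20.5% of all UMIs with THP and 16.7% with vehicle. Prdx1 had 3068 CPM and 3060 CPM in them, above its macrophage-gate levels of 2734 CPM and 2844 CPM. No other member was higher in the ungated cells than in its highest gate. The smaller gates, pooled, held 1.43% of all UMIs with THP and 1.85% with vehicle, and several members were higher there. Gclm had 176 CPM (162 to 191) with THP and 126 CPM (115 to 138) with vehicle in that pool, Srxn1 63.9 CPM and 62.6 CPM, Prdx1 6485 CPM and 5320 CPM, and Nqo1 14.0 CPM (10.2 to 18.8) and 11.7 CPM (8.52 to 15.6). Gsr and Slc7a11 were not higher there than in their highest gate.

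**Figure D2:**
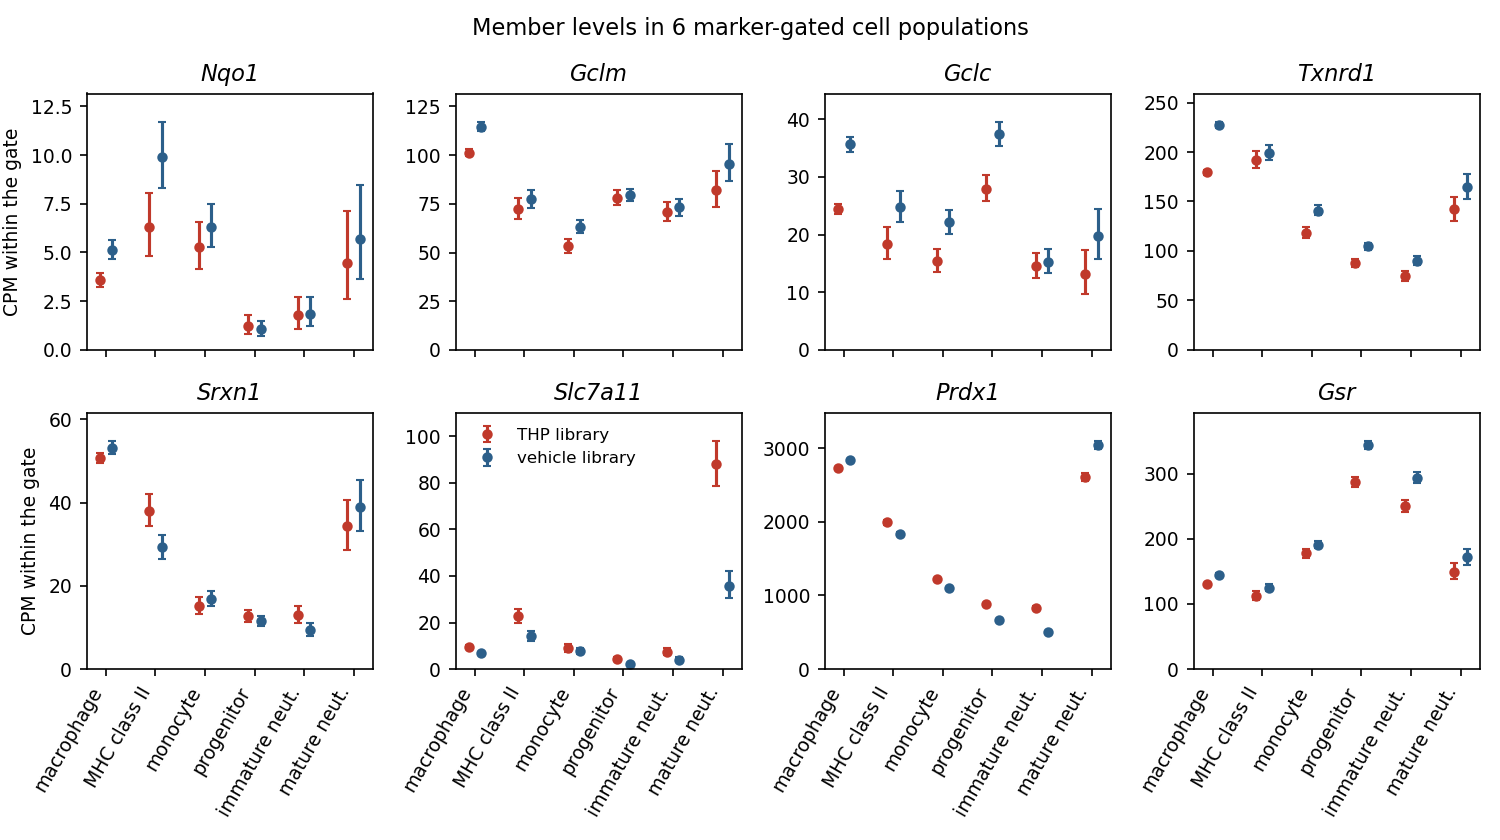
Level of each member (CPM within the gate, y, linear from 0, own scale per panel) in 6 gates (x), with 1 point per library and exact 95% Poisson intervals. Gsr was highest in progenitors and immature neutrophils, where Srxn1 and Prdx1 were lowest, and Slc7a11 stood out in the mature neutrophil gate.

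Gsr had the clearest order. In the THP library it ran from 287 CPM (280 to 295) in progenitors through 250 CPM in immature neutrophils, 178 CPM in monocytes, 150 CPM in mature neutrophils and 131 CPM in macrophages to 113 CPM (106 to 119) in antigen-presenting cells. In the vehicle library the order of the 6 gates was the same, from 344 CPM (337 to 350) down to 125 CPM (119 to 131), and no neighbouring intervals overlapped in either library. Glutathione reductase transcript was thus 2.55 and 2.75 times as high in progenitors as in antigen-presenting cells. Progenitors gave 17.1% of all Gsr UMIs with THP and 28.0% with vehicle, where they held 9.43% and 15.9% of all UMIs. Gsr was lower with THP in all 6 gates, with log2 ratios from -0.11 in monocytes to -0.26 in progenitors, and TMM scaling turned the macrophage, monocyte and antigen-presenting gates to higher.

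Gclc was highest in progenitors, at 28.0 CPM (25.8 to 30.3) and 37.4 CPM (35.3 to 39.5), followed by macrophages at 24.4 CPM (23.5 to 25.3) and 35.6 CPM (34.3 to 36.9). The intervals of those 2 gates overlapped with vehicle and not with THP. Gclc was lower with THP in all 6 gates, by log2 ratios of -0.41 to -0.55 in 5 of them and by -0.07 in immature neutrophils. In 4 of those gates it stayed lower in every setting tried. In immature neutrophils it did not, nor in the monocytes without macrophage marker UMIs (27.7 CPM and 15.6 CPM), which were 16 and 35 cells with 5 Gclc UMIs each. The modifier subunit Gclm had a flatter profile, with 101 CPM (99.4 to 103) and 115 CPM (112 to 117) in macrophages and its lowest level, 53.2 CPM (49.6 to 57.0) and 63.1 CPM (59.8 to 66.6), in monocytes. Its ratios between libraries lay between -0.24 and -0.03 in the 6 gates. TMM scaling turned them above 0 in macrophages, immature neutrophils, progenitors and antigen-presenting cells.

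Txnrd1, Prdx1 and Srxn1 shared a profile that was high in macrophages and low in progenitors and immature neutrophils. Txnrd1 had 179 CPM (177 to 182) and 227 CPM (224 to 230) in macrophages against 74.2 CPM (69.4 to 79.3) and 90.3 CPM (85.4 to 95.3) in immature neutrophils. Srxn1 had 50.7 CPM (49.4 to 52.0) and 53.1 CPM (51.6 to 54.7) in macrophages against 12.98 CPM (11.0 to 15.2) and 9.46 CPM (7.94 to 11.2) in immature neutrophils. Over the 12 points of 6 gates in 2 libraries, log2(CPM + 1) of Srxn1 followed that of Prdx1 with a Pearson r of 0.97 and that of Txnrd1 with 0.89. Gsr ran against Txnrd1, Srxn1 and Prdx1 with r of -0.87, -0.87 and -0.85. These 12 points share 2 libraries, and macrophage markers were detected in all 6 gates, so the values are descriptions.

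Prdx1 showed the widest spread of ratios after Slc7a11. In immature neutrophils it had 834 CPM (817 to 850) with THP and 500 CPM (489 to 512) with vehicle, a log2 ratio of 0.74, and in progenitors 891 CPM and 666 CPM, a ratio of 0.42. In macrophages it had 2734 CPM and 2844 CPM, a ratio of -0.06 that TMM scaling turned to 0.19. Macrophage markers were also higher with THP in these 2 gates: they summed to 423 CPM against 258 CPM in immature neutrophils, which is 18.7% and 10.7% of their level in the macrophage gate, and to 336 CPM against 175 CPM in progenitors, 14.8% and 7.26%. In mature neutrophils the markers were higher with THP as well (724 CPM against 594 CPM), and there the Prdx1 ratio was -0.22, a value that depended on cells holding stromal or osteoclast marker UMIs (given with the mature neutrophils). When only cells without any macrophage marker UMI were kept, immature neutrophils had 181 CPM (167 to 195) of Prdx1 with THP and 145 CPM (136 to 155) with vehicle, a ratio of 0.31, over 626 and 988 cells. Progenitors without such UMIs, 181 and 290 cells, held 415 CPM (390 to 441) with THP and 333 CPM (317 to 349) with vehicle, a ratio of 0.32. Prdx1 thus remained higher with THP in both populations, by less in each, and its level in immature neutrophils was far lower than with all cells.

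Srxn1 was higher with THP in antigen-presenting cells, where 38.0 CPM (34.2 to 42.1) stood beside 29.3 CPM (26.5 to 32.3), a ratio of 0.37, and in immature neutrophils, with a ratio of 0.42. In macrophages its ratio was -0.07, and TMM scaling turned it to 0.18. Without cells holding macrophage marker UMIs, Srxn1 in immature neutrophils was 3.69 CPM and 3.00 CPM, which leaves little of the level seen with all cells. In antigen-presenting cells without macrophage marker UMIs it had 0 UMIs with THP (an exact interval reaching up to 6.48 CPM) and 12.7 CPM (4.12 to 29.6) with vehicle, from 116 and 69 cells. In progenitors without macrophage marker UMIs it had 1.99 CPM (0.647 to 4.65) and 9.57 CPM (7.06 to 12.7), from 5 and 48 UMIs, a ratio of -1.82 where all progenitors had given 0.13.

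Txnrd1 was lower with THP in all 6 gates, with its largest difference in macrophages (log2 ratio -0.34) and its smallest in antigen-presenting cells (-0.05), the gate that TMM scaling turned to higher. Without cells holding macrophage marker UMIs the ratio was -0.54 in immature neutrophils, still lower with THP, and 0.06 in mature neutrophils, where all cells had given -0.21. Among progenitors without such UMIs it was -0.28 (66.6 CPM and 81.0 CPM). Antigen-presenting cells without them had 121 CPM (94.2 to 153) and 88.9 CPM (61.9 to 124), and monocytes 99.8 CPM (59.2 to 158) and 77.9 CPM (50.4 to 115), so in these 2 gates Txnrd1 lay higher with THP, with overlapping intervals. Nqo1 was highest of the 6 gates in antigen-presenting cells, at 6.29 CPM (4.81 to 8.08) with THP and 9.89 CPM (8.30 to 11.7) with vehicle, and lowest in progenitors, at 1.23 CPM (0.801 to 1.80) and 1.06 CPM (0.736 to 1.47). With THP the antigen-presenting interval overlapped that of monocytes, at 5.26 CPM (4.17 to 6.56). Nqo1 was lower with THP in macrophages, at 3.57 CPM (3.23 to 3.93) against 5.13 CPM (4.65 to 5.65), in every setting tried. In the neutrophil and progenitor gates Nqo1 rested on 17 to 35 UMIs per library, and the intervals of the 2 libraries overlapped.

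**Figure D3:**
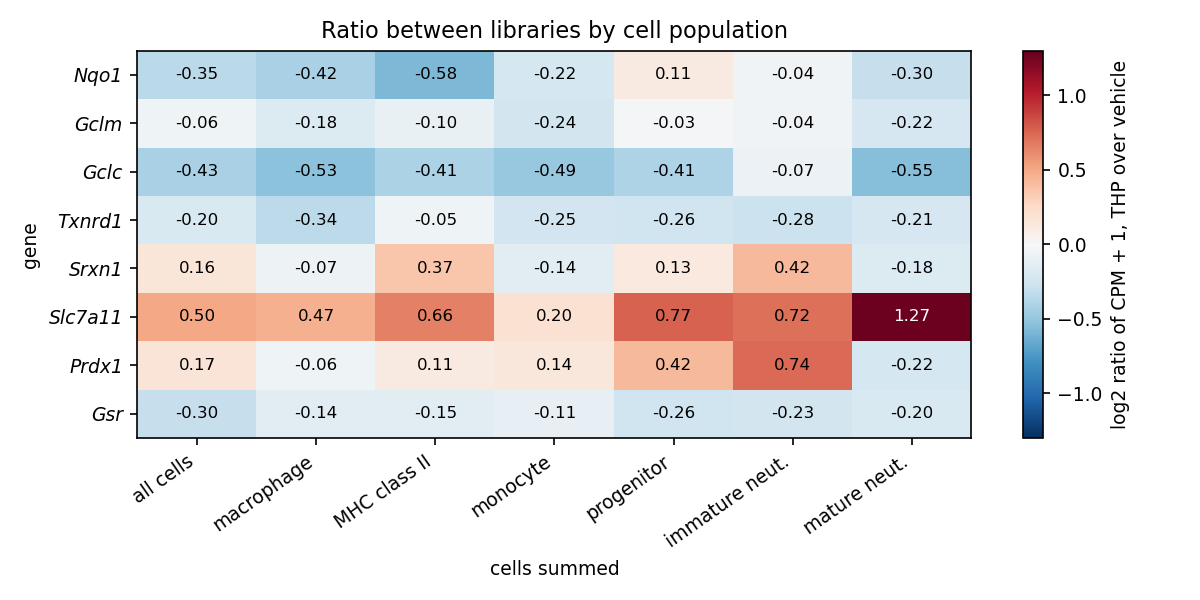
Log2 ratio of CPM + 1, THP over vehicle, for each member (rows) over all kept cells and in 6 gates (columns), from blue (lower with THP) to red (higher). Slc7a11 is the only row above 0 in every column and reaches 1.27 in mature neutrophils, while in macrophages 1 member is above 0 and 7 below, a split that TMM scaling changes to 5 and 3. Without TMM scaling, 2632 of the 7890 genes with at least 10 CPM in the macrophage gate were higher with THP and 5258 lower. The all-gene split with TMM scaling was not counted.

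Slc7a11 in mature neutrophils was the only pairing of a member and a gate past 2-fold, among 48. The share of all genes past that size in either direction was 3.28% in macrophages, 3.34% in monocytes, 6.04% in antigen-presenting cells, 3.29% in progenitors, 5.92% in immature neutrophils and 9.12% in mature neutrophils, where 1.5% were past it upward. In mature neutrophils Slc7a11 had 88.0 CPM (78.8 to 97.9) with THP and 35.8 CPM (30.4 to 42.0) with vehicle. The log2 ratio was 1.27, with a counting interval of 1.01 to 1.58 on CPM without the added 1, from 336 and 151 UMIs.

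The mature neutrophil gate was also where Slc7a11 was highest within each library. Its next gate was the antigen-presenting one, at 22.7 CPM (19.8 to 25.9) and 14.0 CPM (12.1 to 16.2), and progenitors were lowest, at 4.199 CPM (3.37 to 5.17) and 2.05 CPM (1.59 to 2.60). Mature neutrophils thus held 21.0 times the level of progenitors with THP and 17.5 times with vehicle. With 1.70% and 2.03% of all UMIs, they gave 11.9% and 8.44% of all Slc7a11 UMIs.

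Cells in the mature neutrophil gate were shallow, with a median of 2377 and 2054 UMIs, which is 14.8% and 11.9% of the library medians. Of the 10 genes highest by fold in the gate, 2 were its own markers, Retnlg at rank 1 and Cxcr2 at rank 4. The others were Asprv1, Ibsp (rank 3), AC110211.1, Stfa2, Cyp4f18, Slfn1, Stfa2l1 and Iglc2 (rank 10). Whether Ibsp and Iglc2 came from other cells in the gate was not tested. The 8 mature neutrophil markers summed to 127872 CPM with THP and 117940 CPM with vehicle in the gate, and to more in the immature neutrophil gate, 201089 CPM and 195160 CPM (157% and 165%). When every cell was thinned to 1000 UMIs, so that depth was equal and no cell was left out, 15.6% of cells with THP (exact binomial interval 12.98% to 18.4%) and 5.51% with vehicle (4.14% to 7.16%) had a Slc7a11 UMI. In the macrophage gate the same shares were 0.753% and 0.519%, and in progenitors 0.190% and 0.0694%. Without thinning, 30.7% and 11.3% of cells in the mature neutrophil gate had a Slc7a11 UMI.

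Macrophage markers in the mature neutrophil gate summed to 724 CPM with THP and 594 CPM with vehicle, 31.9% and 24.7% of their level in the macrophage gate. Cells without any macrophage marker UMI numbered 259 (36.3%) and 517 (54.8%). In them Slc7a11 was higher than in the whole gate, at 162 CPM (131 to 197) and 45.6 CPM (33.9 to 59.9), a log2 ratio of 1.80 from 97 and 51 UMIs, beside an all-gene median of -0.52 and 3.72% of all genes past 2-fold upward. Prdx1 moved the other way, from 2606 CPM and 3043 CPM in the whole gate to 230 CPM (193 to 272) and 237 CPM (209 to 267). Txnrd1 went from 142 CPM and 165 CPM to 48.3 CPM and 46.5 CPM, and Srxn1 from 34.3 CPM and 38.9 CPM to 15.0 CPM and 10.7 CPM. Levels of Prdx1, Txnrd1 and Srxn1 were thus lower among the cells without macrophage marker UMIs, and that of Slc7a11 was higher. Gsr kept its level with vehicle (173 CPM) and was at 86.7 CPM with THP, a log2 ratio of -0.99 that had been -0.20 with all cells. Among the cells without macrophage marker UMIs, 26.0% of the 6268 genes with at least 10 CPM were past 2-fold lower with THP.

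Markers of stromal and osteoclast cells were also detected in the mature neutrophil gate and differed between the libraries. Stromal markers summed to 1.83 CPM with THP and 1240 CPM with vehicle, where 10 cells held 99.7% of those UMIs, and osteoclast markers to 630 CPM and 1207 CPM. The 604 and 762 cells without any UMI of either list had 116 CPM (102 to 132) and 38.0 CPM (30.0 to 47.4) of Slc7a11, a log2 ratio of 1.59 beside an all-gene median of -0.18. In the cells that also lacked macrophage marker UMIs, 250 and 454, the Slc7a11 ratio was 1.67. Slc7a11 was therefore at least as far apart without these cells as with them (1.27). Prdx1 was not: without stromal or osteoclast marker UMIs it had 632 CPM (599 to 667) and 415 CPM (387 to 443.6), a ratio of 0.61 where the whole gate had given -0.22. Txnrd1 and Srxn1 also turned to higher with THP, with ratios of 0.45 and 0.87. These cells still held macrophage markers, at 569 CPM with THP and 400 CPM with vehicle. In the 250 and 454 cells that also lacked macrophage marker UMIs, the Prdx1 ratio was 0.09 (counting interval -0.24 to 0.41). There Txnrd1 had 0.17 (-0.56 to 0.90) and Srxn1 0.49 (-0.95 to 1.98), so each interval reached to both sides of level.

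**Figure D4:**
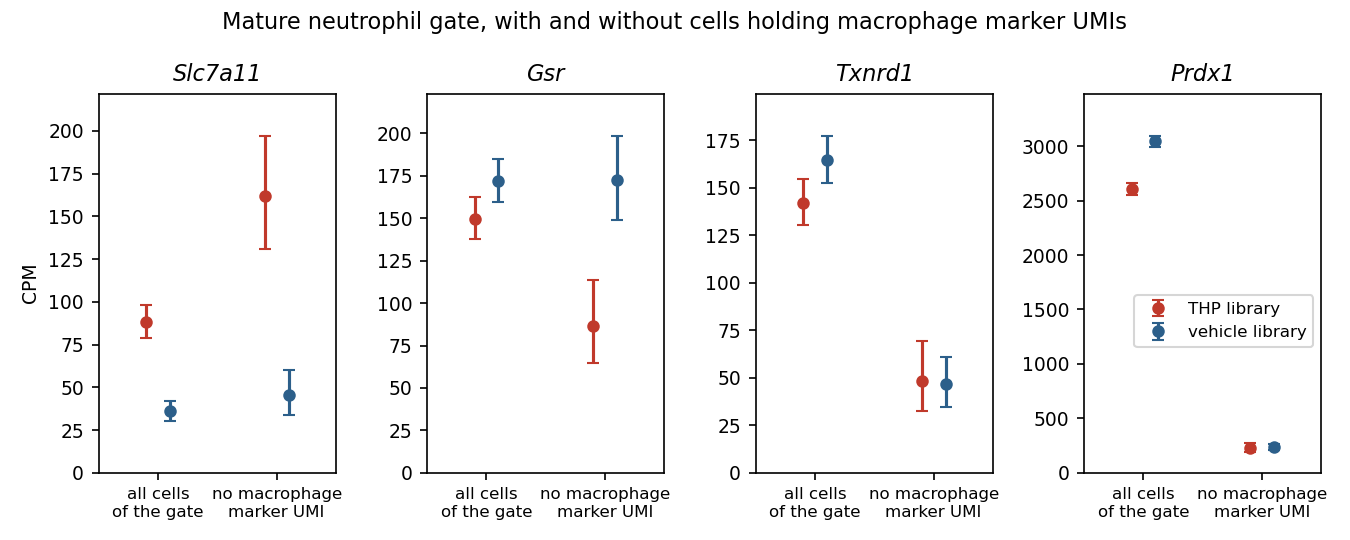
Levels (CPM, y, linear from 0) of Slc7a11, Gsr, Txnrd1 and Prdx1 in the mature neutrophil gate, for all its cells and for the cells without any macrophage marker UMI (x), with 1 point per library and exact 95% Poisson intervals. With THP, Slc7a11 is at 88.0 CPM in all cells and at 162 CPM in the cells without macrophage marker UMIs, and Prdx1 at 2606 CPM and 230 CPM.

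Slc7a11 was also higher with THP in the other gates, with log2 ratios of 0.77 in progenitors, 0.72 in immature neutrophils, 0.66 in antigen-presenting cells, 0.47 in macrophages and 0.20 in monocytes. Except in antigen-presenting cells, its level there was under the 10 CPM of the size rule in both libraries. The 2 largest ratios came from the lowest levels, 4.20 CPM and 2.05 CPM in progenitors and 7.41 CPM and 4.11 CPM in immature neutrophils. The intervals of the libraries did not overlap in any of these gates except monocytes, at 8.92 CPM (7.48 to 10.6) and 7.66 CPM (6.54 to 8.92). Among cells without macrophage marker UMIs the direction was kept in immature neutrophils, from 31 and 34 UMIs. The levels there were 8.18 CPM (5.56 to 11.6) and 4.86 CPM (3.37 to 6.79), with overlapping intervals. It was not kept in progenitors (0.797 CPM and 1.20 CPM, from 2 and 6 UMIs), antigen-presenting cells (7.02 CPM and 17.8 CPM, from 4 and 7 UMIs) or monocytes (5.55 CPM and 15.6 CPM, from 1 and 5 UMIs). In those last 3 gates the intervals overlapped widely. Slc3a2, the partner chain of the transporter, did not share the pattern in mature neutrophils, where it had 114 CPM (103 to 125) and 102 CPM (92.9 to 112), a ratio of 0.15.

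The other genes of the pathway were read from 7 lists by role, 61 genes in all, of which 51 had at least 10 CPM. Of these, 27 were higher with THP and 24 lower, with a median of 0.07, beside -0.18 for all genes. Among the 8012 genes with at least 10 CPM, 2596 were higher and 5416 lower, the background for the unscaled split of each list below. TMM scaling changed the split of the 51 genes to 43 and 8. It also turned the all-gene median positive, and the all-gene split with TMM scaling was not counted. The splits with TMM scaling, here and below, therefore have no background beside them and are not to be set against the unscaled one. Only 2 of the 51 genes passed 2-fold, Sod2 upward and Slc40a1 downward, where 0.911% of all genes passed upward and 2.97% downward.

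Among the regulators, Nfe2l2 itself had 153 CPM (152 to 155) with THP and 127 CPM (125 to 128) with vehicle, a log2 ratio of 0.27, and was higher there in all 6 gates (up to 0.62 in immature neutrophils and monocytes). Bach1, the repressor, had 41.9 CPM (41.0 to 42.7) and 67.4 CPM (66.3 to 68.5), a ratio of -0.67, and was lower in all 6 gates, from -0.55 in antigen-presenting cells to -0.93 in mature neutrophils. Transcripts of activator and repressor thus differed in opposite directions between the libraries, with the sizes under 2-fold. Over all kept cells the all-gene median was -0.18, and Bach1 was among the 17.3% of genes at least 1.5-fold lower with THP. Nfe2l2 did not reach 1.5-fold there, a size that 2.33% of genes passed upward. The part of transcript length in the ratios of Nfe2l2 and Bach1 was not tested. Sqstm1, whose protein p62 binds Keap1, had a ratio of 0.43, and Cul3 a ratio of -0.54.

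In the glutathione list 3 of 8 genes were higher with THP and 5 lower (7 and 1 with TMM scaling). Glrx, which removes glutathione from proteins, had 247 CPM and 128 CPM, a ratio of 0.94, and passed 2-fold in macrophages at 299 CPM and 147 CPM (1.02). Gpx4, the lipid peroxidase, had a ratio of 0.08, Abcc1, an exporter of glutathione conjugates, -0.20, and Mgst1, a microsomal glutathione transferase, -0.36.

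In the thioredoxin, peroxide and superoxide list 7 of 11 were higher and 4 lower (10 and 1 with TMM scaling). Sod2, the mitochondrial superoxide dismutase and also a known target of NF-kappaB, had 538 CPM (535 to 541) with THP and 175 CPM (173 to 177) with vehicle, a ratio of 1.61. It was higher in all 6 gates, from 1.12 in progenitors to 2.65 in immature neutrophils, a size that no member reached in any gate. Txn1, thioredoxin itself, had a ratio of 0.31 and Cat, catalase, -0.19. Txnip, which binds and inhibits thioredoxin, had 131 CPM and 233 CPM, a ratio of -0.83. It was more than 2-fold lower with THP in macrophages (152 CPM and 326 CPM) and antigen-presenting cells (137 CPM and 313 CPM), while in both neutrophil gates its ratio was within 0.05 of level.

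No gene of the NADPH supply list was higher with THP and 5 of 5 were lower, from -0.11 (G6pdx) through -0.15 (Taldo1) and -0.22 (Tkt) to -0.53 (Idh1), and TMM scaling changed that split to 4 higher and 1 lower. The haem and iron list had 6 of 8 higher (7 with TMM scaling), with Fth1, ferritin heavy chain, at 0.47 and Blvrb, a biliverdin reductase, at 0.41. Slc40a1, the iron exporter ferroportin, had 20.9 CPM (20.3 to 21.5) and 61.6 CPM (60.5 to 62.6), a ratio of -1.52, and was lower in all 6 gates. Fech, the last enzyme of haem synthesis, had a ratio of -0.18. Hmox1, the haem oxygenase that both Nrf2 and Bach1 are known to control, had 168 CPM and 131 CPM over all kept cells, a ratio of 0.36. By gate its ratio was -0.03 in macrophages (234 CPM and 240 CPM), 0.22 in mature neutrophils, 0.31 in antigen-presenting cells, 0.50 in monocytes, 0.85 in progenitors and 0.92 in immature neutrophils (57.6 CPM and 29.9 CPM). In progenitors macrophage markers were at 14.8% and 7.26% of their macrophage-gate level, and in immature neutrophils at 18.7% and 10.7%. The 10% of cells with the most Hmox1 UMIs held 83.4% and 86.8% of them in progenitors, and 82.6% and 91.5% in immature neutrophils. Whether these Hmox1 ratios hold without cells with macrophage marker UMIs was not tested.

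In the detoxification list 3 of 5 were higher, led by Akr1b8, an aldo-keto reductase, at 0.45 and Esd, an esterase, at 0.23, while Cbr3, a carbonyl reductase, was at -0.27 and Ugdh, which makes UDP-glucuronate, at -0.44. The amino acid response list, whose genes are known targets or parts of Atf4 signalling as Slc7a11 also is, had 5 of 8 higher and 3 lower (8 and 0 with TMM scaling). Atf3 led it with 63.6 CPM and 40.8 CPM, a ratio of 0.63, followed by Ddit3 at 0.24. Psat1, of serine synthesis, was at -0.08 and Sesn2, a sestrin, at -0.21.

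**Figure D5:**
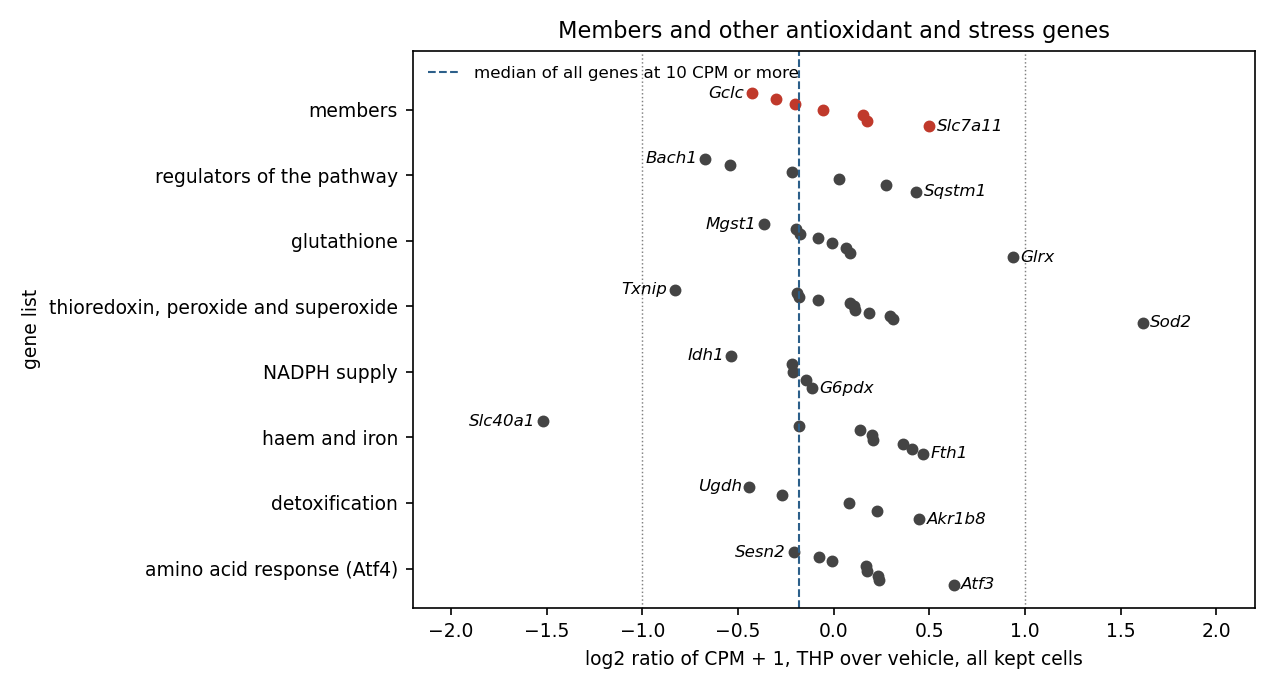
Log2 ratio of CPM + 1 over all kept cells (x) for the 7 members and the 51 other genes with at least 10 CPM, 1 point per gene, by list (y), with the lowest and highest gene of each list named. Dotted lines mark 2-fold, and the dashed line the all-gene median of -0.18. The members lie between Gclc and Slc7a11, inside the dotted lines, and Sod2 and Slc40a1 lie outside them.

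Across the 12 points of gates and libraries, the 5 genes outside the set whose log2 level was most like the mean standardised profile of the 8 members were Tnfsf12 (Pearson r 0.95), Vat1 (0.94), Pkp4 (0.94), Sertad2 (0.93) and Hexa (0.93), of 8012 genes compared. Against the same mean profile, Srxn1, Prdx1 and Txnrd1 had r of 0.95, 0.93 and 0.91, Gclm 0.73, Nqo1 0.63, Slc7a11 0.54, Gclc 0.33 and Gsr -0.76. Each member is itself part of that mean.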

How the data were processed

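The authors deposited count matrices of UMIs (raw, genes by barcodes) for 2 libraries, from software version 3.1.0 per the file headers. The submitters' processing notes name Cell Ranger, STAR, bcl2fastq and mm10. Cells with at least 500 genes, at least 1000 UMIs and at most 10% mitochondrial UMIs were kept. No doublet caller was run and doublets were kept, and an alternative left out the top 5% of cells by UMIs in each library. Raw counts were summed per library and gate, with a pseudocount of 1 CPM in ratios, since 1 library per group allows no test. Lengths and coordinates are from GENCODE M21 (GRCm38), 1-based, and promoters from RefSeq. Python 3.11.15, scipy 1.17.1 and, for TMM and RLE factors, edgeR 4.0.16 were used, and the ratios were tested on simulated data. All 8 members are named, and of each wider list those past 2-fold plus the 2 highest and 2 lowest ratios at 10 CPM or more. Slc3a2 and Hmox1 were added after their values were seen. The members and lists were chosen with earlier results of these data known. The gate threshold was set from marker counts alone. The number of mice behind each library is not stated in the labels.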

Additional observations from a re-analysis of the deposited data

Results flagged for a closer look

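The ratio of Srxn1 between the libraries went in opposite directions in gates of the same culture: 0.42 in immature neutrophils and -0.07 in macrophages, 0.485 apart on the log2 scale, with counting intervals that excluded 0 on either side. In 2 gates Srxn1 was higher and in 1 lower by that criterion. Prdx1 likewise had 0.74 in immature neutrophils and -0.22 in mature neutrophils, 0.960 apart, with 4 gates higher and 2 lower. Neither difference was tested, since each group is 1 library. Macrophage markers in the immature neutrophil gate were at 18.7% of their macrophage-gate level with THP and 10.7% with vehicle. Without cells holding those UMIs the immature neutrophil ratios were 0.23 for Srxn1 and 0.31 for Prdx1. In mature neutrophils the Prdx1 ratio was 0.61 without the cells holding stromal or osteoclast marker UMIs. It was -0.04 without the cells holding macrophage marker UMIs, and 0.09 without the cells holding UMIs of any of these markers. With TMM scaling over the gate the macrophage ratio of Srxn1 was 0.18.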

How the results depend on the processing

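No paired analysis was possible because each group is 1 library. The 0 members past 2-fold became 1 with the length correction (Slc7a11, 1.09) and stayed 0 in the other settings. The members' median of -0.13 became 0.15 with TMM factors, 0.15 with RLE factors, -0.071 with equal weight per cell and 0.13 with the length correction, where the all-gene median was 0.11, 0.10, -0.18 and 0.00. For the wider lists 6 of 51 genes passed 1.5-fold, 3 upward and 3 downward, where 2.33% of all genes passed upward and 17.3% downward. The median of the wider lists was 0.35 with TMM and 0.34 with RLE factors. Over all kept cells, Nqo1, Gclc, Slc7a11, Prdx1 and Gsr kept their direction in all 10 settings. Gclm and Txnrd1 reversed with TMM factors, RLE factors and the length correction, and Srxn1 with the same mix of gates. Of 48 pairs of member and gate, 21 kept their direction in every setting and 27 did not. Slc7a11 in mature neutrophils ranged from 1.03 to 1.80. Leaving out cells with macrophage marker UMIs (which leaves 16 and 35 monocytes), cells under 2000 UMIs or with stromal or osteoclast marker UMIs in the mature neutrophil gate or ungated cells, and thinning to 1000 UMIs, were chosen after seeing the data. Depth limits Nqo1 most, with 17 to 35 UMIs per library in 3 gates.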

Other observations

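Per cell, thinned to 5000 UMIs, 3 of the 8 members were detected at the median in the macrophage gate of either library, with means of 2.73 ± 1.10 (SD over cells, 4092 cells) with THP and 2.93 ± 1.10 (2873 cells) with vehicle. In immature neutrophils of the THP library the mean was 2.03 ± 1.02. Over the 28 pairs of members, the Pearson r of thinned counts across macrophage-gated cells lay between -0.01 and 0.19 with THP and between -0.04 and 0.20 with vehicle. The highest values in both libraries were those of Prdx1 with Gclm, Txnrd1, Srxn1 and Slc7a11. With THP they were 0.192, 0.190, 0.188 and 0.190, and with vehicle 0.164, 0.188, 0.195 and 0.205. All values are weak, the thinned counts are sparse, and what lies behind the values was not tested.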
